A study of Mus musculus with 16 samples.

Results

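miR-342-3p is a mature microRNA (miRNA, a short RNA that guides repression of messenger RNAs) of the mouse, cut from the 3′ arm of the hairpin Mir342. It was taken as 1 of the 1247 mouse miRNAs on the array by its own name in the scanner files, and it is read by 2 of the 3105 probes. It was chosen by its log2 difference between RAW264.7 cells grown with and without Th2 cytokines, so that difference is described below without a test, and tests are kept for the response to interleukin-33 (IL-33).

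RAW264.7 is a macrophage-like cell line derived from a mouse tumour. The 16 single-colour arrays fall into 4 groups of 4. Th2_IL33 cells had interleukin-4 and interleukin-13 (the Th2 cytokines, 10 ng per ml) for 48 h and then, after a wash, IL-33 (20 ng per ml) for 4 h. Th2 cells had the Th2 cytokines alone, Media_IL33 cells had IL-33 alone after growth in medium, and Media cells had neither. All groups were adherent cells of 1 line in the same serum-containing medium, and no knockout, transgene or primary macrophage was included. Each group holds 1 array from each of 4 independent experiments, and the replicate numbers 1 to 4 stand for those experiments.

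As background, the Mir342 hairpin lies inside Evl, a gene of the Ena/VASP family that helps build actin filaments at the cell edge. A miRNA of this kind can be made from its host's transcript, and the miRNA recognises its targets mainly through its seed, the bases just after its 5′ end. In human promyelocytic leukaemia cells, miR-342 is known to be induced by retinoic acid and to have sites for the myeloid factor PU.1 in its control region. Interleukin-4 and interleukin-13 drive macrophages to alternative activation, the state of allergic and repair responses, and IL-33 is an alarm cytokine released by damaged barrier cells.

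The sequences are shown because they set what the array could see of this hairpin. They come from RefSeq (GRCm38.p6), where 1 hairpin and 2 mature arms of Mir342 matched, on the plus strand at chr12:108658620-108658718. The 3p arm is at chr12:108658680-108658702 and the 5p arm at chr12:108658638-108658659. Capitals mark the seed (bases 2 to 8) in the mature sequences and the 2 mature arms in the hairpin.
mmu-miR-342-3p: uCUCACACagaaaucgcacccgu
mmu-miR-342-5p: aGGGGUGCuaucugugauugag
Mir342 hairpin: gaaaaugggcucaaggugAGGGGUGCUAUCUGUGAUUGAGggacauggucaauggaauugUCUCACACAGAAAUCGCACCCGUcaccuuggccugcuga

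Evl was the only gene of the RefSeq table that spans the hairpin, and Mir345 was the nearest other miRNA gene. The table used here gives no exon or intron, and messenger RNA, Evl included, was not measured. The seed CUCACAC was shared by 0 of the other mature mouse miRNAs in the table of 1679, over bases 2 to 8 and over bases 2 to 7. miR-342-3p therefore has no seed family to compare it with here. Its 2 probes are complementary to its 3′ part and differ by 1 base in length.
Probe A_54_P2573: acgggtgcgatttctg
Probe A_54_P2574: acgggtgcgatttctgt

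The shorter probe pairs with bases 8 to 23 of the miRNA and the longer one with bases 7 to 23, so neither reads most of the seed. No other mature mouse miRNA in the table came within 3 mismatches of either probe. The closest was at 5 mismatches for the shorter probe and at 6 for the longer one.

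The arrays as a whole gave 206 to 256 detected miRNAs each, and the 231 that every array of some group detected were tested. Signals are given as relative signal, the summed probe intensity over the array's 75th percentile (427 to 654 intensity units). That percentile has the value 1 and was taken over the 178 miRNAs found on every array. Values under 0.0353 were set to that floor before log2 was taken, in the values of single miRNAs and in the sum over myeloid markers. The sum over markers of other cells or serum was taken without the floor. Media 3 stood furthest from its own group (median r with the other 3 arrays 0.874), while Media 1 and Media 2 had 0.920 and Th2_IL33 2 had 0.945. The arrays came from 2 slides of 8, each scanned once, and the groups were spread unevenly. Slide 1 held 0 Th2_IL33, 3 Th2, 2 Media_IL33 and 3 Media arrays, and slide 2 held 4, 1, 2 and 1. Of 6 myeloid marker miRNAs, 4 were matched on the array and used. Of those, miR-223-3p, miR-146a-5p and miR-21a-5p were detected on all 16 arrays and miR-155-5p on 11. Of 17 markers of other cells or serum, 16 were detected on no array, among them miR-150-5p of lymphocytes, miR-122-5p of liver and miR-451a of red cells, and the muscle miRNA miR-206-3p was detected on 11. The 17 together summed, without the floor, to a relative signal of -0.0372 to 0.0454 in Th2_IL33, 0.00483 to 0.0636 in Th2, 0.0298 to 0.0953 in Media_IL33 and 0.0229 to 0.0727 in Media. The part of these markers in the results below was not tested.

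miR-342-3p was detected on all 16 arrays. Of its 640 spots, 637 were well above background, 0 were saturated and 41 (6.41%) were marked as outliers and left out. In experiments 1 to 4, its relative signal was 0.656, 0.634, 0.536 and 0.395 in Th2_IL33. It was 0.543, 0.575, 0.569 and 0.326 in Th2. In Media_IL33 it was 0.229, 0.249, 0.258 and 0.208, and in Media 0.299, 0.244, 0.152 and 0.184. Th2 lay wholly above Media, as for 9.09% of tested miRNAs. Th2_IL33 lay wholly above Media_IL33 (as for 14.3%) and above Media (as for 10.8%). The share with all Th2-grown arrays above all medium-grown arrays was not counted. Experiment 4 was the lowest in 3 of the 4 groups. In raw intensity units the Th2_IL33 arrays had 303, 362, 341 and 187, the Th2 arrays 292, 295, 315 and 170, the Media_IL33 arrays 150, 161, 154 and 126, and the Media arrays 185, 104, 93.4 and 104. On this unscaled measure Th2 4, at 170, lay below Media 1, at 185.

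**Figure D1:**
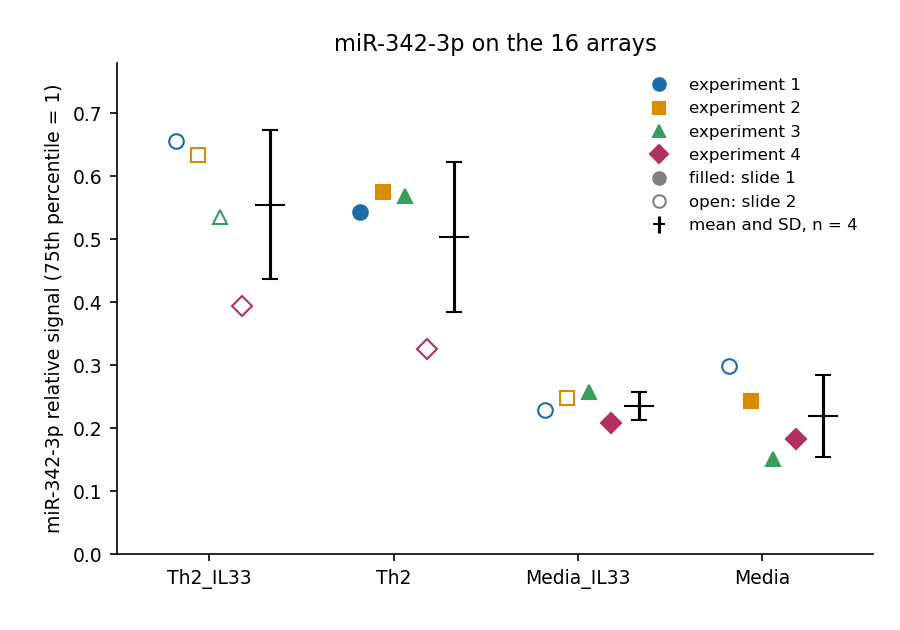
Relative signal of miR-342-3p (linear axis, 1 is the array's 75th percentile) on each array, by group. Marker shape and colour give the experiment, filled markers are slide 1, open markers slide 2, and bars are the mean and SD of 4 arrays. Th2_IL33 and Th2 lie above Media_IL33 and Media, and the experiment 4 arrays are the lowest in Th2_IL33, Th2 and Media_IL33.

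The order of the group means was Th2_IL33 (0.555 ± 0.119), Th2 (0.503 ± 0.119), Media_IL33 (0.236 ± 0.0222) and Media (0.220 ± 0.0653; SD, n = 4 each). The neighbours Th2_IL33 and Th2 overlapped, as did Media_IL33 and Media. Arrays of 1 group differed by a coefficient of variation of 21.4% in Th2_IL33, 23.6% in Th2, 9.39% in Media_IL33 and 29.7% in Media. The standard error from the spots within an array was 0.773% to 2.67% of the signal. The spread between arrays holds slide and array effects as well as those of the experiments. The residual SD of miR-342-3p on the log2 scale was 0.34, against a median of 0.26 over the tested miRNAs, and 77.9% of them had a smaller one. Replicate arrays are separate experiments of 1 cell line, and their number limits the precision.

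With Th2 cytokines and no IL-33, miR-342-3p was 2.31-fold higher, a log2 difference Th2 minus Media of 1.21 ± 0.23 (SE). Since these are bulk samples, more cells carrying the miRNA and more of it per cell cannot be told apart. The ratio of Th2 to Media within experiments 1 to 4 was 1.82, 2.36, 3.74 and 1.78. It was above 1 in 4 of 4 experiments, and the high ratio of experiment 3 goes with the lowest Media array (0.152). The lowest Th2 array (0.326) was above the highest Media array (0.299), as happened for 9.09% of the tested miRNAs in this direction. Over all tested miRNAs, limma called 9.52% in either direction at an adjusted p of 0.05. Among the 181 miRNAs detected on all arrays of both groups, the difference of miR-342-3p had rank 3 from the highest, and the median difference over all tested miRNAs was 0.063. These values led to its choice and are given as a description.

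With IL-33 present in both groups, the log2 difference Th2_IL33 minus Media_IL33 was again 1.21 ± 0.23, a 2.32-fold higher signal. The within-experiment ratios were 2.86, 2.55, 2.08 and 1.90, a narrower range than without IL-33. The lowest Th2_IL33 array (0.395) was above the highest Media_IL33 array (0.258), as for 14.3% of tested miRNAs, and 9.52% were called in either direction. Both stimuli against neither, Th2_IL33 minus Media, gave 1.36 ± 0.23 (2.56-fold), where 10.8% of tested miRNAs were separated in this direction and 10.4% were called. The Media arrays enter both Th2 minus Media and Th2_IL33 minus Media, so those 2 differences share their controls.

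The values were also taken by slide. Within slide 1, Th2 minus Media was 1.57 ± 0.20 (3 arrays each), and within slide 2 it was 0.13 ± 0.37, from the single arrays Th2 4 and Media 1, which come from different experiments. Th2 4 is the lowest Th2 array and Media 1 the highest Media array. Th2_IL33 minus Media_IL33 within slide 2 (4 and 2 arrays) was 1.19 ± 0.23, and slide 1 held no Th2_IL33 array. With the slide as a block in the fit, Th2 minus Media was 1.21 and Th2_IL33 minus Media_IL33 was 1.22. Both differences were smaller with normexp background correction, at 0.61 and 0.72. That setting changes the background correction and adds an offset of 50 intensity units, and the part of each was not tested.

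**Figure D2:**
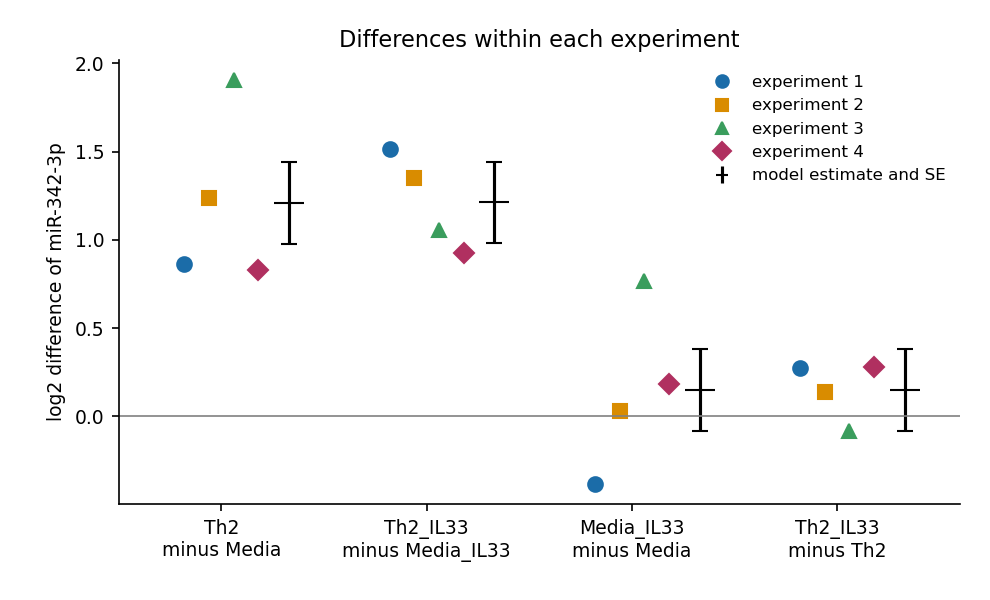
Log2 difference of miR-342-3p between arrays of the same experiment (y axis) for 4 comparisons (x axis). Marker shape and colour give the experiment, and bars are the model estimate and its SE over all 16 arrays. Both comparisons of Th2-grown with medium-grown cells lie above 0 in every experiment, while Media_IL33 minus Media spans 0.

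No difference of miR-342-3p with IL-33 passed the test. In medium-grown cells the relative signal averaged 0.236 ± 0.0222 with IL-33 and 0.220 ± 0.0653 without it (SD, n = 4 each), a log2 difference of 0.15 ± 0.23 (95% interval -0.35 to 0.64, limma adjusted p = 1). The 4 experiments gave ratios of 0.767, 1.02, 1.70 and 1.13, and 3 of them were above 1. The groups overlapped. Over all tested miRNAs, 2.16% had Media_IL33 wholly above Media, and limma called 1.73%. The estimate was -0.014 without Media 3, the lowest Media array.

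In Th2-grown cells the averages were 0.555 ± 0.119 with IL-33 and 0.503 ± 0.119 without it (SD, n = 4 each), a log2 difference of 0.15 ± 0.23 (95% interval -0.34 to 0.65, limma adjusted p = 1). The ratios were 1.21, 1.10, 0.943 and 1.21, again with 3 of 4 above 1. The groups overlapped, 3.9% of tested miRNAs had Th2_IL33 wholly above Th2, and 1.73% were called. Without Th2 4, the lowest Th2 array, the estimate was -0.046. Within slide 2 it was 0.74 ± 0.29, where all 4 Th2_IL33 arrays stand against Th2 4 alone (limma adjusted p = 0.716). As folds, the intervals run from 0.786 to 1.56 in medium-grown cells and from 0.787 to 1.57 in Th2-grown cells. A smaller change in either direction is inside them. The fit has no term for the slide, so the intervals do not bound a change mixed with slide effects. It also has no term for the experiment, which pairs the arrays. Adding the experiment as a block left both estimates at 0.15, with an SE of 0.18 in place of 0.23. In Th2-grown cells the value within slide 2 lies above the interval. With the slide as a block, the estimate there was 0.17 ± 0.29.

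Averaged over both growth conditions, the IL-33 difference was 0.15 ± 0.16 (95% interval -0.20 to 0.50, limma adjusted p = 0.997), in a comparison where 2.16% of miRNAs were called. The interaction, Th2_IL33 minus Th2 less Media_IL33 minus Media, was 0.0035 ± 0.33 (95% interval -0.70 to 0.70, limma adjusted p = 0.995). Within slide 2 it was 1.06 ± 0.44 (limma adjusted p = 0.286), outside that interval, from 4 Th2_IL33, 1 Th2, 2 Media_IL33 and 1 Media arrays. No miRNA was called for the interaction (0%), and 5 had an unadjusted p under 0.05. The interval allows a Th2 difference with IL-33 that is larger or smaller than the one without it, so equal responses are not shown.

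miR-146a-5p, raised by NF-kB signalling and detected on all 16 arrays, is an example of a miRNA called with IL-33 on the same arrays. It was listed with earlier results of these arrays known, and 1.73% of tested miRNAs were called in medium-grown cells. The myeloid markers miR-223-3p (log2 difference -0.10 ± 0.24) and miR-21a-5p (0.59 ± 0.23) were not called there. miR-146a-5p was 0.484 ± 0.0568 in Media_IL33 and 0.231 ± 0.0336 in Media (SD, n = 4 each), and its log2 difference of 1.08 passed the threshold (limma adjusted p = 0.000804). In Th2-grown cells it was 0.533 ± 0.0798 with IL-33 and 0.287 ± 0.0512 without it (limma adjusted p = 0.00366). miR-155-5p, also raised by NF-kB signalling, had log2 differences of 1.17 in medium-grown and 1.86 in Th2-grown cells. Several of its arrays without IL-33 were at the floor or not detected, so those differences depend on the floor. Detected on 11 arrays, it was tested only because the groups with IL-33 detected it. Its calls were thus partly set by that filter, and no p is given.

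The other arm of the hairpin, miR-342-5p, was detected on 0 of 16 arrays and could not be tested. Only 2 of its 640 spots were well above background. Its summed intensity had a median of 15.1 units in Th2_IL33, 14.7 in Th2, 14.5 in Media_IL33 and 13.4 in Media, with a range over all arrays of 7.49 to 18.9. The lowest signal of any detected miRNA was 3.76 to 23.2 units, depending on the array. These values lie within that range, and the array cannot show whether the 5p arm differs between groups. Levels of the 2 arms are not set against each other, since they come from different probes.

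The 2 probes of miR-342-3p gave the same picture when taken alone. Th2 minus Media was 1.19 with the shorter probe and 1.22 with the longer one. Th2_IL33 minus Media_IL33 was 1.21 and 1.22. Over the 16 arrays their log2 signals correlated with r = 0.993, and the deviations from the group means with r = 0.968. The 2 probes share the RNA, the array and nearly all of their sequence, so this describes the array's precision and not that of the cells.

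The miRNAs whose pattern was most like that of miR-342-3p were found by the Pearson correlation of log2 relative signal over the 16 arrays. That r includes the difference between growth conditions, so the r of the deviations from the group means is given beside it, and all of them share arrays and scaling. miR-223-3p, a miRNA of the myeloid lineage that restrains granulocyte and macrophage activation, had the highest of both among 230 other tested miRNAs (r = 0.966, and 0.949 for deviations). Over all 230 the medians were 0.246 and 0.215. 10 miRNAs had an r over 0.9, whereas miR-223-3p alone had an r of deviations over 0.9.

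The next most alike by r were miR-500-3p (0.940, deviations 0.668), miR-324-5p (0.932, deviations 0.854), miR-99a-5p (0.931, deviations 0.589), miR-362-3p (0.928, deviations 0.580) and miR-532-5p (0.926, deviations 0.536). miR-500-3p, miR-362-3p and miR-532-5p come from 1 cluster in the chloride channel gene Clcn5. By deviations alone, miR-223-3p was followed by miR-324-5p (0.854), miR-425-5p (0.835) and miR-146a-5p (0.827). miR-146a-5p is the case where both measures part, with an r of 0.409 over the arrays. Its group means were higher with IL-33, and its deviations from them followed those of miR-342-3p.

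miR-223-3p is shown because it tracked miR-342-3p array by array, from the X chromosome and with another seed (capitals).
mmu-miR-223-3p: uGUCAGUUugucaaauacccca

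In experiments 1 to 4, miR-223-3p had a relative signal of 0.980, 1.09, 0.836 and 0.600 in Th2_IL33 and of 1.11, 1.19, 1.02 and 0.598 in Th2. In Media_IL33 it had 0.399, 0.439, 0.459 and 0.336, and in Media 0.610, 0.424, 0.341 and 0.403. As for miR-342-3p, experiment 4 was the lowest in Th2_IL33, Th2 and Media_IL33, Media 3 the lowest Media array and Media 1 the highest. Here the lowest Th2 array (0.598) was below the highest Media array (0.610), so the groups overlapped. The within-experiment ratios of Th2 to Media were 1.82, 2.80, 3.00 and 1.48, beside 1.82, 2.36, 3.74 and 1.78 for miR-342-3p. With IL-33 they were 2.46, 2.47, 1.82 and 1.79, beside 2.86, 2.55, 2.08 and 1.90.

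Within the 8 Th2-grown arrays the r of both miRNAs was 0.884 (Spearman 0.643), and it was 0.178 without Th2 4 and Th2_IL33 4, so it rests on experiment 4. Within the 8 medium-grown arrays it was 0.823 (Spearman 0.881), and 0.995 without Media 3 and Media 4, the 2 arrays farthest from the median. Over the deviations of all 16 arrays it was 0.913 without Th2 4 and Media 1. These correlations are a description, since the arrays share experiments and scaling.

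**Figure D3:**
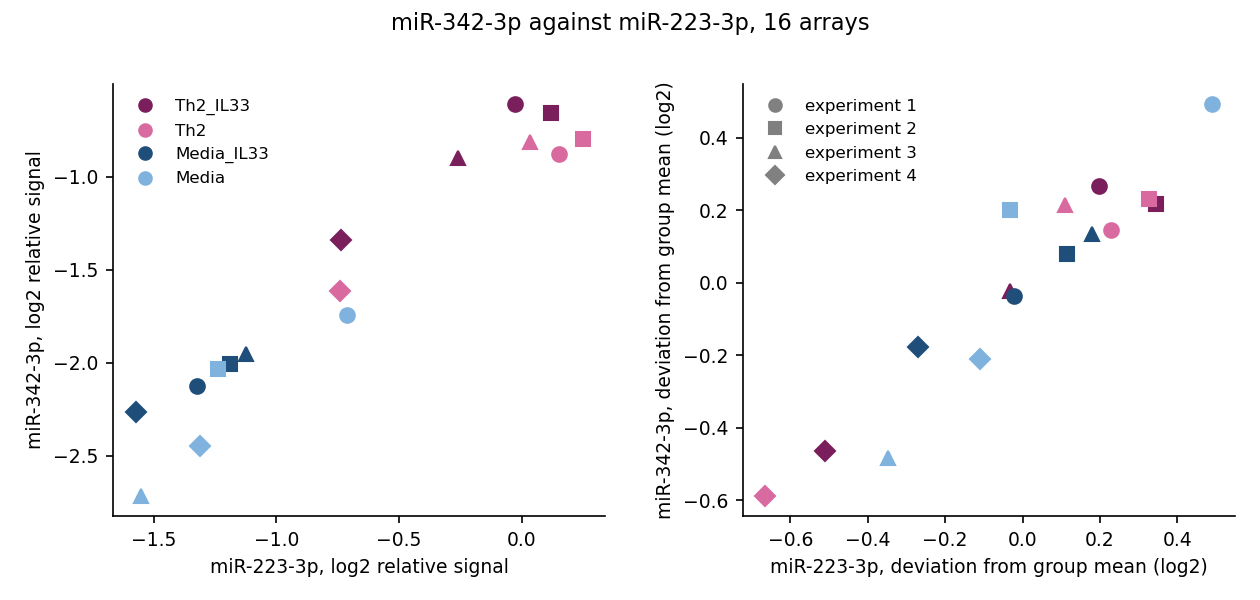
miR-342-3p (y axes) against miR-223-3p (x axes) on 16 arrays, as log2 relative signal (left) and as the deviation from the group mean (right, log2). Colour gives the group and shape the experiment in both panels. Both miRNAs rise together in each panel (r = 0.966 and 0.949), and the experiment 4 arrays of Th2_IL33 and Th2 lie furthest left in the right panel.

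The drop in experiment 4 was not shared by most miRNAs. In Th2_IL33, miR-342-3p in experiment 4 was at 64.9% of the mean of experiments 1 to 3, and in Th2 at 58.0%. In Media_IL33 it was at 84.8% and in Media at 79.2%. miR-223-3p was at 62.1% in Th2_IL33 and 54.0% in Th2. miR-511-3p, hosted by Mrc1 (the mannose receptor, which marks alternative activation), was at 123% in Th2_IL33 and 110% in Th2, and miR-99a-5p at 104% and 98.4%. miR-324-5p, at 88.5% and 77.9%, was lowest in experiment 4 in both groups. miR-500-3p (104% and 86.5%) and miR-532-5p (105% and 91.1%) were lowest there in Th2 only of these 2 groups, and miR-362-3p (92.3% and 98.9%) in Th2_IL33 only. In both Th2-grown groups, 11 of 231 tested miRNAs (4.76%) were lowest in experiment 4. With 4 arrays per group, such a share can arise with no effect of the experiment. The count also takes no account of the size of a drop, so it does not set miR-342-3p apart. Th2 4 lies on slide 2 apart from the other Th2 arrays, whereas Th2_IL33 4 shares slide 2 with the other Th2_IL33 arrays, and the part of the slide was not tested for this pattern.

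Lists of related miRNAs were read by their counts beside the share called over all miRNAs (9.52% in either direction, 8.66% higher, for Th2 with Media). Of 11 miRNAs tied to alternative activation, 8 were tested and 4 were higher in Th2, with a median log2 difference of 0.86 against 0.063 over all tested. The 4 include miR-511-3p, whose call was partly set by the filter, as given below. Scaled to the 75th percentile over all mouse miRNAs, 2 of the list were called. miR-511-3p was 0.234 ± 0.0133 in Th2, and all 4 Media arrays had the floor value of 0.0353, so its difference depends on the floor. Detected on 8 arrays, it was tested only because Th2-grown groups detected it. Its call was thus partly set by that filter, and no p is given. miR-223-3p had a log2 difference of 1.13 ± 0.24 (limma adjusted p = 0.00495) and miR-378a-3p, from the coactivator gene Ppargc1b, 1.07 ± 0.16 (limma adjusted p = 0.000254). let-7c-5p also passed, at 0.65 ± 0.15. miR-378a-5p, at 2.20 ± 0.93, did not (limma adjusted p = 0.159). The median would be the same for any difference of miR-511-3p above 1.07. With IL-33 in both groups the same 4 miRNAs were called, with a median of 0.52 (0.080 over all, where 8.23% were called higher). The limit for the call of miR-511-3p holds there too.

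Of 11 PU.1-dependent or myeloid miRNAs, 7 were tested. With Th2 cytokines alone 3 were higher, namely miR-223-3p, miR-21a-5p (log2 difference 0.80 ± 0.23) and miR-22-3p (0.68 ± 0.16), and the median was 0.37. Scaled to the 75th percentile over all mouse miRNAs, 0 of this list were called. With IL-33 in both groups 3 were higher, namely miR-223-3p, miR-155-5p (0.72 ± 0.19) and miR-22-3p (0.69 ± 0.16), with a median of 0.60. The summed relative signal of the 4 myeloid markers was 23.2 to 31.6 in Th2_IL33, 17.4 to 25.6 in Th2, 14.5 to 20.7 in Media_IL33 and 7.42 to 16.7 in Media. Most of that sum is miR-21a-5p, which alone averaged 24.6 in Th2_IL33, 18.7 in Th2, 16.2 in Media_IL33 and 11.1 in Media. These lists were drawn up with earlier results of the same arrays known, and miR-223-3p stands in both. For IL-33 against no IL-33, miR-146a-5p alone was called in the first list and miR-146a-5p with miR-155-5p in the second, in medium-grown and in Th2-grown cells. The limit given above for the calls of miR-155-5p holds here too.

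miR-342-3p sits alone in its host, so other miRNAs with 1 hairpin in a protein-coding gene were read beside it. The list of 30 also held miR-342-5p of the same hairpin, which was not tested. Of the 30 listed, 13 were tested, and 2 were higher in Th2, the same miR-511-3p and miR-378a-3p. The limit given above for the call of miR-511-3p holds here too. The median was 0.17 (0.063 over all tested). It is the value of miR-148b-3p, whose Media arrays were all at the floor, and the next values in the order are 0.17 and 0.11. miR-26a-5p, from a Ctdsp phosphatase gene, differed by a log2 of 0.45 ± 0.18 and miR-139-5p, from the phosphodiesterase gene Pde2a, by -0.33 ± 0.12, and neither passed (limma adjusted p = 0.141 and 0.126). With IL-33 in both groups the count was also 2, with a median of 0.16.

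Other miRNAs of chromosome 12 gave little to compare. Of 52 listed, mostly the imprinted Dlk1-Dio3 cluster, 50 were matched on the array, 4 were tested and 0 were called in any of the 4 comparisons. With 9.52% of all tested miRNAs called in either Th2 comparison and 1.73% in either IL-33 comparison, 0 of 4 does not set them apart. miR-345-5p, from the nearest other miRNA gene, was 0.0598 ± 0.00514 in Th2 and 0.0569 ± 0.00843 in Media (SD, n = 4 each), a log2 difference of 0.08 ± 0.14 (limma adjusted p = 0.809). The log2 difference was 0.37 ± 0.19 for miR-494-3p and 0.17 ± 0.27 for miR-341-3p. miR-376c-3p, detected on 14 of 16 arrays, had 3.43 ± 1.20 (limma adjusted p = 0.0964), with a Media mean of 1.81 ± 2.50 that shows how far its Media arrays lay apart. The median of the 4 was 0.27 without IL-33 and 0.16 with it.

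**Figure D4:**
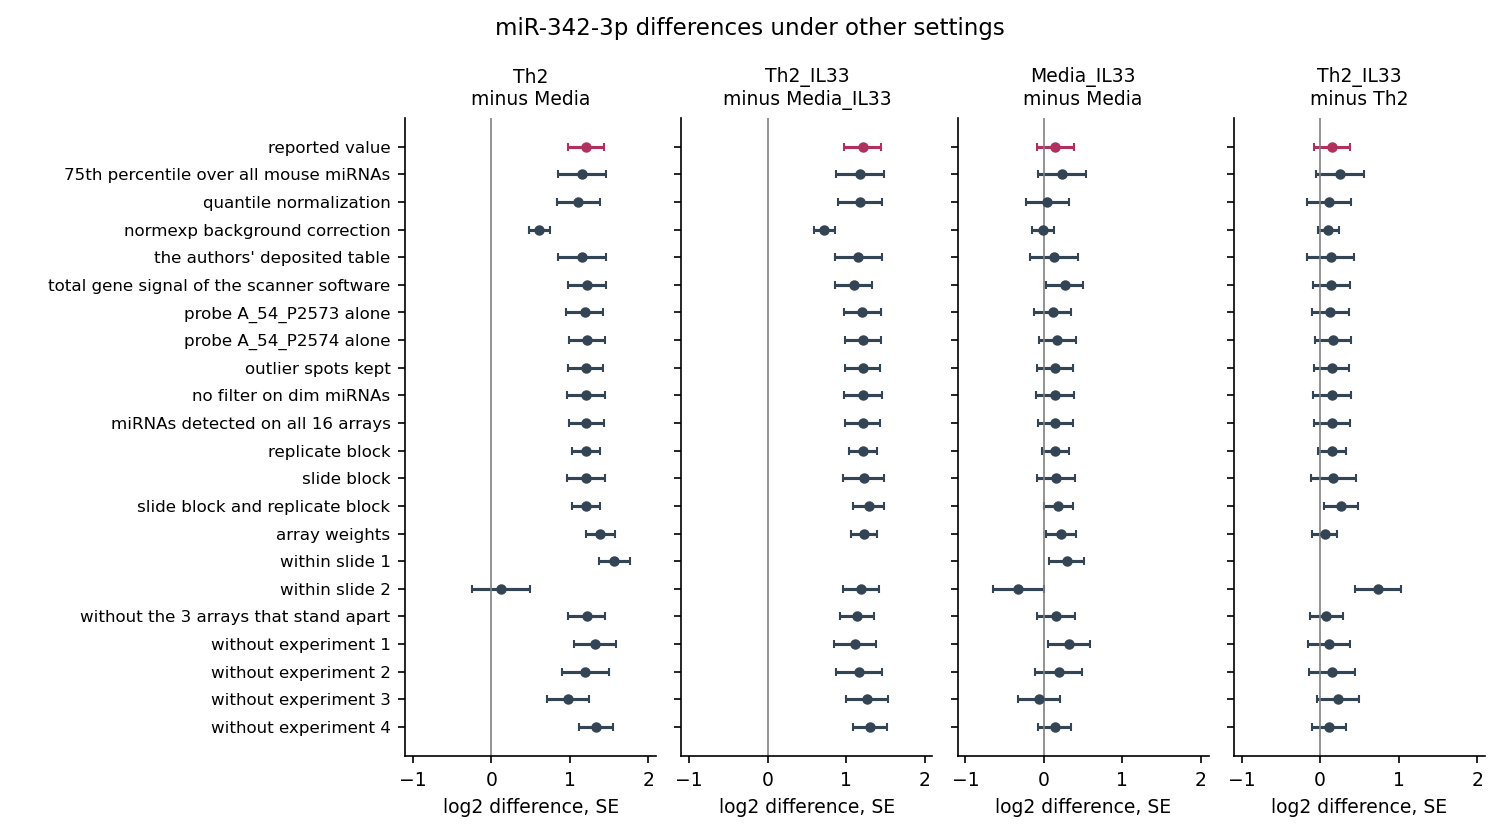
Log2 difference of miR-342-3p (x axes, bars are SE) for 4 comparisons under each setting of the computation (rows), with the reported value in red. Settings that cannot give a comparison have no point. Both comparisons of Th2-grown with medium-grown cells stay above 0 in every row shown, with 0.13 within slide 2 as the lowest, and Media_IL33 minus Media falls on both sides of 0.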

How the data were processed

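Total RNA of 16 RAW264.7 cultures was labelled with Cy3, and each was hybridised to 1 array. Per the file headers, the scanner software was Agilent Feature Extraction 10.7.3.1. The intensity of each spot in the deposited files has background and spatial trend removed, and arrays were not scaled to each other. For the authors' own table of probe intensities, the submitters' processing notes name Partek 6.6 and RMA. Its columns share 1 distribution on a linear scale, as read from the values. It was used as an alternative, where its direction and scale could be set against the scanner values but its centring is not stated.

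Here, control and outlier spots were dropped, spots of a probe averaged, probes of a miRNA summed, and each array scaled to the 75th percentile of the 178 miRNAs found on every array. The floor of 0.0353 is the 1st percentile of detected signals. log2 values of the 231 miRNAs that every array of some group detected were fitted with limma 3.58.1 (R 4.3.3, and the package data.table in version 1.17.8), with 1 mean per group over 16 arrays, 12 residual degrees of freedom and Benjamini-Hochberg adjustment within a comparison (threshold 0.05). The fit was also run on simulated arrays with independent noise and changes planted in Th2 alone. These held no slide or experiment effects, and recovery was read for Th2 minus Media only. Group errors are SD and those of differences SE.

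The miRNA and all lists were chosen with earlier results of these data known. Besides miR-342-3p and miR-342-5p, the 6 miRNAs with the highest r, the 4 with the highest r of deviations, up to 4 members of each list by size of difference and the marker miRNAs are named. let-7c-5p, miR-148b-3p and, beside experiment 4, miR-511-3p were named after their values were seen, and the count of miRNAs low in experiment 4 was made then too. Replicate numbers mark independent experiments per the labels and so pair arrays. In a check, deviations of same-numbered arrays correlated with a median r of 0.11 over 24 pairs (-0.694 to 0.728), and those of different numbers with -0.048. Alternatives covered scaling, background, probe summary, outliers, filters, blocks, slides and left-out arrays. Leaving out a whole experiment was added after seeing the data. miR-142 names of the lists were not matched on the array and are not used here.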

Additional observations from a re-analysis of the deposited data

Results flagged for a closer look

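The signal of miR-342-3p in Th2 4 lay far below the other 3 Th2 arrays. Its relative signal was 0.326, against 0.543 to 0.575, and the gap to the nearest of them was 0.898 of the group's whole range, above Dixon's 95% critical value for 4 samples. Each probe showed it alone, with 0.931 for the shorter probe (A_54_P2573) and 0.856 for the longer one (A_54_P2574). Both probes read the same RNA on the same array, so these are not separate observations. Chance flags about 1 in 20 groups. The experiment 4 array of Th2_IL33 was also the lowest of its group, with a share of 0.603 that is below the critical value.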

How the results depend on the processing

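Th2 minus Media was positive under all 37 alternatives run. It moved to 0.61 with normexp background correction, to 1.57 within slide 1 and to 0.13 within slide 2. Th2_IL33 minus Media_IL33 moved to 0.72 with normexp, and Th2_IL33 minus Media to 0.71 with normexp and 0.87 within slide 2. Without each array in turn, these differences ranged over 1.05 to 1.40, 1.12 to 1.37 and 1.20 to 1.52. Of 145 alternative values for IL-33 and the interaction, 0 had an adjusted p under 0.05, and the smallest was 0.286. Media_IL33 minus Media turned negative with normexp (-0.010), within slide 2 (-0.32) and without experiment 3 (-0.058, chosen after seeing the data), and ranged over -0.014 to 0.31 without single arrays. Without single arrays, Th2_IL33 minus Th2 ranged over -0.046 to 0.31 and the averaged IL-33 difference over 0.051 to 0.23, and over all alternatives they ranged over -0.046 to 0.74 and 0.046 to 0.25. The interaction was 1.06 ± 0.44 within slide 2. Without a whole experiment it was -0.21 (experiment 1), -0.032 (2), 0.29 ± 0.38 (3) and -0.027 (4). It also turned negative with the scanner's total gene signal (-0.12), the longer probe (-0.0043) and array weights (-0.16). Without Media 1, Media 3 and Th2_IL33 2 together it was -0.075, and without single arrays it ranged over -0.19 to 0.16. The cause was not tested.

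The replicate block, which pairs arrays by experiment, left Th2 minus Media at 1.21 and Media_IL33 minus Media at 0.15, lowered their SE to 0.18 and changed no call for miR-342-3p. It left the interaction at 0.0035, with an SE of 0.25. miR-342-5p passed as detected on 6 arrays in the authors' deposited table. Scaled to the 75th percentile over all miRNAs, 2 of the alternative activation list and 0 of the PU.1 list were called for Th2 with Media. That scaling called 12 higher and 3 lower over all miRNAs, quantile normalization 18 and 11, and the reported one 20 and 2. Of the 6 miRNAs most alike, 4 stayed with quantile normalization and 5 with Spearman's rho. The lowest signals, miR-342-5p among them, are limited by background.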
